A study of Mus musculus with 8 samples.

Results

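The NF-kB subunits and inhibitors were taken as 10 genes by symbol, and all 10 had a row among the 12211 genes of the count table. They are the REL family subunits Nfkb1, Nfkb2, Rela and Relb, the IkB family genes Nfkbia, Nfkbib, Nfkbie and Nfkbiz, the ubiquitin-editing inhibitor Tnfaip3 and the kinase Ikbkb. All 10 passed the filter on low counts, as did 11909 genes of the whole table. The cells were fibroblasts from mouse embryos, which are cultured connective tissue cells, kept in medium with serum and antibiotics. The groups were 4 libraries of control cells (genotype WT) and 4 libraries labelled PUS10KO (genotype PUS10 KO), numbered 1 to 4 in each. PUS10 belongs to the pseudouridine synthases, which convert uridine to pseudouridine within RNA, and the series title joins it to tRNA fragments, retrotransposons and inflammation. The sources used here do not give how the allele was made, the strain, the embryonic age or whether a genotype is 1 line or several. The p-values therefore measure only the spread between these libraries, which may be technical.

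NF-kB is a set of transcription factors made of paired REL family proteins. In resting cells IkB proteins hold these pairs in the cytoplasm. In the canonical route the IKK kinase complex marks IkB for destruction and frees pairs that contain RELA and p50, the product of Nfkb1. In the non-canonical route the precursor made from Nfkb2 is cut to p52, which pairs with RELB. Several IkB genes and Tnfaip3 are themselves switched on by NF-kB in many cell types and limit its activity. In fibroblasts the pathway is known for its response to tumour necrosis factor, interleukin 1 and microbial products.

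Because NF-kB acts on DNA through the kappaB motif, the start regions of the members were searched for it. RefSeq promoter sequence (GRCm38.p6, 250 bases before to 50 after a start site) was at hand for 6 members, Nfkb2, Rela, Nfkbia, Nfkbib, Nfkbie and Tnfaip3. The 10-base kappaB consensus GGGRNWYYCC was searched on both strands. In it R is A or G, W is A or T, Y is C or T and N is any base. A match was held by 4 of these 6 members, where 5.14% of 27025 genes and 4.51% of 32851 promoters did. Rela and Nfkbib had none in these windows, which says nothing about binding elsewhere. A match is a run of letters and not a shown binding site. The upstream 250 bases of Nfkbie are shown because this gene had the largest fold change among the members. They lie at chr17:45555450-45555699 on the plus strand, with the kappaB match in capitals, 106 bases before the start site.
Nfkbie: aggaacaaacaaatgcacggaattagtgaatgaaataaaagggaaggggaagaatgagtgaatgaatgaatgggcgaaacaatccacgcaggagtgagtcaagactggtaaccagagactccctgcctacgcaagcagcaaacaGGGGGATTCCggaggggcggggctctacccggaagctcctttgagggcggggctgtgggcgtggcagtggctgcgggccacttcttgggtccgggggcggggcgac

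The matches of the other 3 genes are shown in 30-base windows, 5′ to 3′ on the gene's own strand and with the match in capitals, so that the sites can be set beside each other. For Nfkb2 the windows are chr19:46304688-46304717 and chr19:46304716-46304745, plus strand. The first match began 39 bases before the start site, read the same on both strands and overlapped a further match shifted by 1 base. The second began 11 bases before it. Nfkb2 also had matches at 2 downstream start sites, which are not printed. The Nfkbia window is chr12:55492657-55492686, minus strand, with the match from 29 bases before the start. For Tnfaip3 the windows are chr10:19015516-19015545 and chr10:19015403-19015432, minus strand. The matches begin 125 and 12 bases before the start site at 19015410, and the other listed start site of Tnfaip3 had none. The Nfkbia match and the second Tnfaip3 match fit the consensus on the opposite strand to the one printed. The genes with a match included members that rose, a member that fell and a member that did not pass the test, as the values below show.
Nfkb2, first: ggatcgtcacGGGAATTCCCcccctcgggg
Nfkb2, second: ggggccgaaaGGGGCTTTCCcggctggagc
Nfkbia: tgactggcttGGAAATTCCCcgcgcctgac
Tnfaip3, first: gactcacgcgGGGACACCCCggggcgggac
Tnfaip3, second: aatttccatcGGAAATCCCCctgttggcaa

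Library totals ran from 17561114 to 24563499 counts, so that even the scarcest member, Nfkbie in control, had 53 to 99 counts a library. Pus10 itself was at 46.1 ± 6.46 CPM in control (CPM are counts scaled to the TMM-adjusted library size; SD, n = 4) and at 13.8 ± 1.6 CPM in PUS10KO. Of 11 fibroblast markers 4 fell and none rose in the edgeR test given below, where 7.11% of all genes tested fell and 5.9% rose. Pdgfra, S100a4 and Lum had higher means in PUS10KO, with log2 fold changes of 1.02, 0.27 and 0.61, none past the test. With the library number as a block Pdgfra rose and Col3a1 also fell (edgeR adjusted p = 0.00247 and 0.0455). The summed level of the 11 markers was 17230 to 21340 CPM in control and 10930 to 16470 CPM in PUS10KO. Thy1 was near 0 in PUS10KO (0.024 ± 0.028 CPM). The sum of 4 macrophage and leukocyte markers was 7.55 to 12.4 CPM in control and 13.8 to 20.2 CPM in PUS10KO, and only Cd14, also a Toll-like receptor co-receptor of fibroblasts, rose (3.09 ± 0.86 to 12.8 ± 3.37 CPM). The other 3 had lower means in PUS10KO, with log2 fold changes of -1.32 for Lyz2, -0.37 for Cd68 and -0.34 for Csf1r, none past the test, and Lyz2 was lower in every PUS10KO library than in any control library. The leukocyte markers Ptprc, Adgre1, Itgam and Tyrobp and the 6 epithelial markers had no row in the count table, so their levels are not known here. Of 5 endothelial markers 2 had a row, and their sum was 2.52 to 4.92 CPM in control and 1.19 to 3.12 CPM in PUS10KO. The part of these cell types in the results was not tested. Eif2s3y of the Y chromosome had 0 counts in all 4 control libraries and 1197 to 1757 in each PUS10KO library, so genotype and Y-chromosome content cannot be told apart. In bulk samples fewer expressing cells and less RNA per cell cannot be told apart either.

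In PUS10KO cells 3 of the 10 members rose, 1 fell and the other 6 missed the threshold (quasi-likelihood test of edgeR, with a Benjamini-Hochberg adjusted p under 0.05 over all genes tested). Nfkbie, Nfkb2 and Relb rose, and Tnfaip3 fell. Over all genes tested 5.9% rose and 7.11% fell. The median log2 fold change of the members was 0.30, against 0.01 for all genes tested. With the library number as a block, which takes differences between numbers out of the error, 6 members rose and 2 fell, where 19.1% of all genes rose and 19.9% fell. The 4 members added by the block were Nfkb1, Nfkbia and Nfkbib, which rose, and Nfkbiz, which fell. Values of 6 members did not overlap between genotypes, 5 higher and 1 lower in PUS10KO, where 9.7% and 10.6% of all genes tested did not overlap in these directions.

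**Figure D1:**
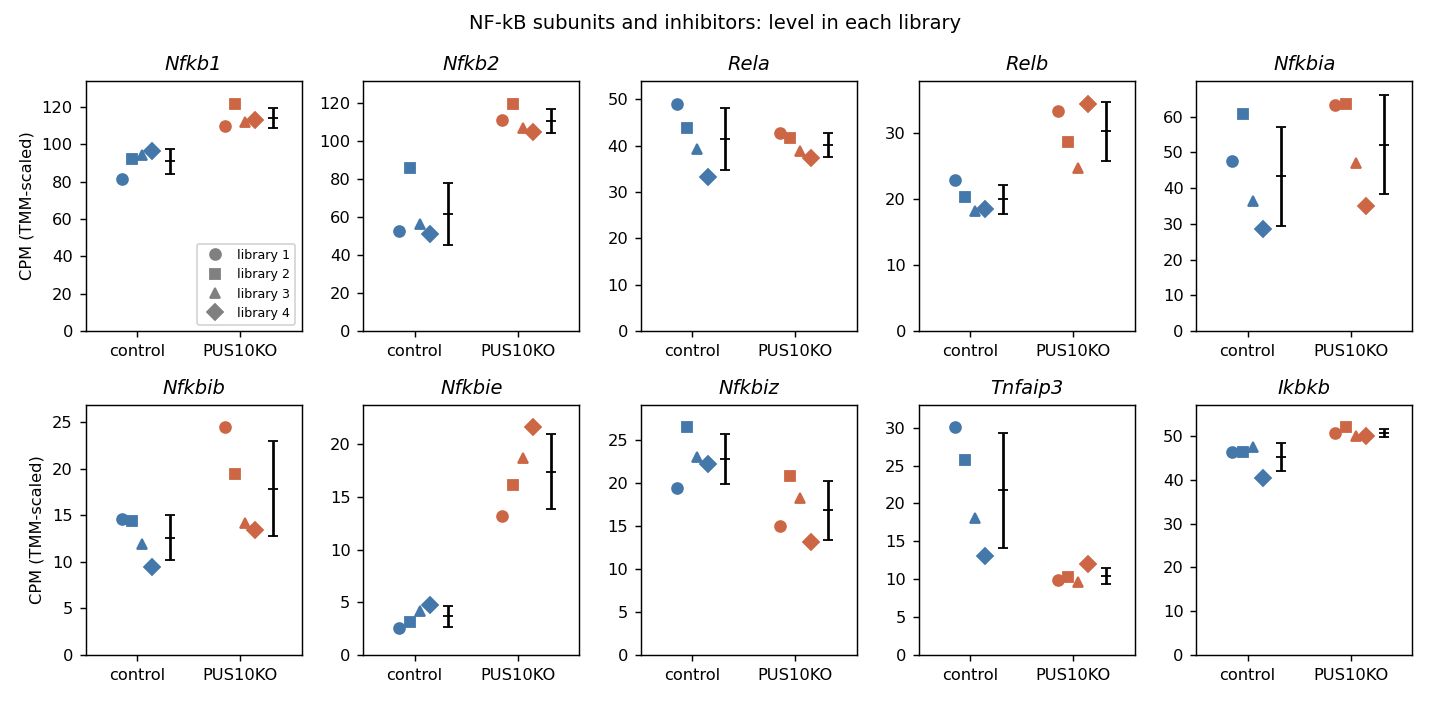
Level of each member in each library, in CPM on a linear axis from 0. Symbols mark the library number, and bars give mean ± SD over 4 libraries of a genotype. Nfkb1, Nfkb2, Relb, Nfkbie and Ikbkb were higher in every PUS10KO library than in any control library, and Tnfaip3 was lower.

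Among the REL subunits, the non-canonical pair Nfkb2 and Relb rose in the edgeR test on genotype alone, while Rela and Nfkb1 did not pass it. Nfkb1 was called higher by DESeq2 and with the replicate block. The call of Relb was kept in only 2 of 8 fits without 1 library. These calls therefore do not separate the routes. Nfkb2 (ENSMUSG00000025225.15, chromosome 19, 46304320 to 46312385, plus strand, GRCm38) encodes the p100 precursor of p52. Control libraries 1 to 4 had 52.9, 85.7, 56.4 and 51.1 CPM of it, and PUS10KO libraries 1 to 4 had 111, 119.5, 107 and 105 CPM. Control 2 stood above the other control libraries, yet below every PUS10KO library. The mean went from 61.5 ± 16.3 to 110.5 ± 6.45 CPM (SD over 4 libraries), a log2 fold change of 0.85 (SE 0.18, edgeR adjusted p = 0.014). Leaving out any 1 of the 8 libraries kept this call, with log2 fold changes from 0.78 to 1.05 and the highest without control 2. Nfkb2 shares 531 bases of exon with AC114539.1, a non-coding RNA gene that was not analysed here, and 299 bases with Psd, both on the opposite strand, and no source used here gives the strand setting of the counting. Psd had 1.77 ± 0.35 CPM in control and 7.55 ± 2.07 CPM in PUS10KO. The part of antisense reads in the Nfkb2 counts was not tested.

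Relb (ENSMUSG00000002983.17, chromosome 7, 19606217 to 19629438, minus strand) encodes the usual partner of p52. Its levels were 22.9, 20.3, 18.2 and 18.5 CPM in control and 33.3, 28.6, 24.7 and 34.5 CPM in PUS10KO. Every PUS10KO library was above every control library, with the narrowest gap between PUS10KO 3 and control 1. Relb rose from 19.97 ± 2.14 to 30.3 ± 4.48 CPM, a log2 fold change of 0.60 (SE 0.15, edgeR adjusted p = 0.0286). With 1 library left out the call was kept only when that library was control 1 or PUS10KO 3, and was lost in the other 6 fits (adjusted p up to 0.078). The log2 fold change was 0.53 to 0.69 over these 8 fits.

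Nfkb1 (ENSMUSG00000028163.17, chromosome 3, 135584655 to 135691547, minus strand) encodes p105, the precursor of p50. It had 81.3, 91.9, 94.3 and 96.4 CPM in control and 109.8, 122, 112 and 113 CPM in PUS10KO. The genotypes did not overlap, but the shift was small, with a log2 fold change of 0.33 (SE 0.10, edgeR adjusted p = 0.0765, or 0.0125 with the replicate block). DESeq2 gave an adjusted p of 0.0056. Rela (ENSMUSG00000024927.8, chromosome 19, 5637483 to 5648130, plus strand), the transactivating subunit of the canonical pair, had 49.1, 43.8, 39.4 and 33.4 CPM in control. In PUS10KO it had 42.8, 41.6, 38.8 and 37.3 CPM. The PUS10KO values all lay within the range of the control values. Its log2 fold change was -0.04 (SE 0.14, edgeR adjusted p = 0.879) and took either sign when 1 library was left out (-0.12 to 0.06).

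Per length the order of the subunits differed between the genotypes, and it also depended on which length was used. Levels were first divided by the length of the longest principal protein-coding transcript, giving CPM per kb. In control the level was 22.1 ± 1.62 CPM per kb for Nfkb1, 19.6 ± 5.18 for Nfkb2, 15.2 ± 2.45 for Rela and 9.04 ± 0.97 for Relb. Nfkb1 and Nfkb2 overlapped there, as did Nfkb2 and Rela, while Relb was below Rela in every library. In PUS10KO Nfkb2 came first with 35.2 ± 2.05 CPM per kb, above Nfkb1 with 27.7 ± 1.28, and the lowest Nfkb2 library was above the highest Nfkb1 library. Rela (14.8 ± 0.92) and Relb (13.7 ± 2.03) overlapped in PUS10KO. With the union of all annotated exons as the length, Rela and Nfkb2 led in control, with mean shares of the summed level of 34.1% and 33.6%, before Nfkb1 (19.3%) and Relb (13.1%). In PUS10KO Nfkb2 (44.3%) then came before Rela (24.0%), Nfkb1 (17.4%) and Relb (14.3%). The place of Nfkb1 among the subunits is therefore not settled by these data, while the mean share of Nfkb2 was higher in PUS10KO with either length.

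The make-up of the subunit pool does not depend on how libraries are scaled. It was computed from the same counts after values had been seen, so it is no separate evidence of the rise of Nfkb2. Nfkb2 was 25.9%, 36.4%, 28.2% and 27.0% of the summed CPM per kb of the 4 subunits in control and 38.0%, 39.7%, 39.3% and 37.0% in PUS10KO. Rela was 27.8%, 21.5%, 22.8% and 20.4% in control and 17.0%, 16.0%, 16.5% and 15.3% in PUS10KO. Neither share overlapped between genotypes, Nfkb2 being higher and Rela lower in all PUS10KO libraries. The mean share of Nfkb2 was 29.4% ± 4.79 against 38.5% ± 1.21 and that of Rela 23.1% ± 3.27 against 16.2% ± 0.74 (SD, n = 4). A two-sided exact permutation test gave p = 0.0286 for each, the smallest that 4 against 4 allows, and an adjusted p = 0.0571 over the 8 shares tested. The shares of Nfkb1 (33.7% ± 4.38 against 30.3% ± 1.12) and Relb (13.8% ± 1.59 against 15.0% ± 2.12) overlapped between genotypes (exact p = 0.286 and 0.371). Since shares of a whole depend on each other, a lower share of Rela does not show a lower level.

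**Figure D2:**
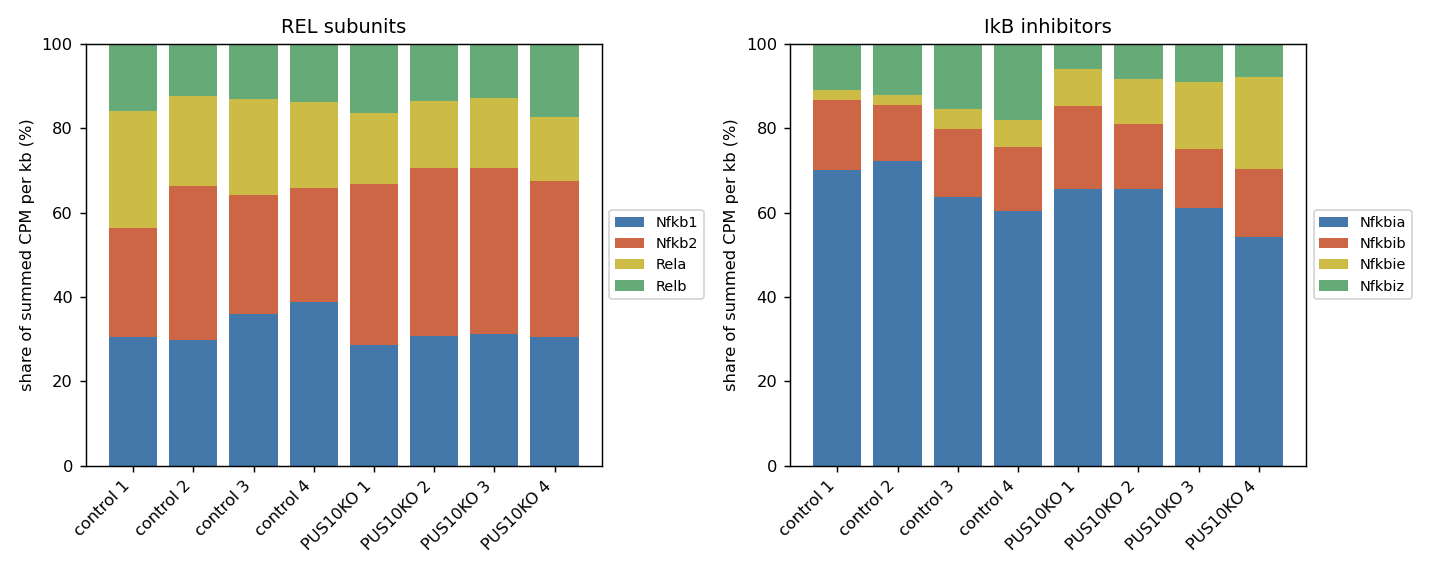
Make-up of the 4 REL subunits (left) and the 4 IkB family genes (right, including the nuclear cofactor gene Nfkbiz) in each library, as a percentage of their summed CPM per kb. The Nfkb2 share was 37.0% to 39.7% in PUS10KO and 25.9% to 36.4% in control. The Nfkbie share was 8.90% to 21.8% in PUS10KO and 2.41% to 6.46% in control.

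The IkB genes went different ways. Nfkbie (ENSMUSG00000023947.8, chromosome 17, 45555703 to 45563169, plus strand) encodes IkB epsilon, an inhibitor that holds REL pairs in the cytoplasm. It had 2.58, 3.12, 4.17 and 4.74 CPM in control and 13.2, 16.1, 18.7 and 21.6 CPM in PUS10KO. The lowest PUS10KO library was above the highest control library by more than the whole control range. It rose from 3.65 ± 0.98 to 17.4 ± 3.58 CPM, a log2 fold change of 2.25 (SE 0.25, edgeR adjusted p = 0.000729). Each of the 8 fits without 1 library kept this call, with log2 fold changes from 2.12 to 2.41. In libraries of the same number the log2 difference was 2.34, 2.35, 2.15 and 2.18. Levels also differed between numbers, from number 1, the lowest in both genotypes, to number 4, the highest in both.

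Nfkbia (ENSMUSG00000021025.8, chromosome 12, 55489410 to 55492647, minus strand) encodes IkB alpha, the inhibitor that is destroyed and made again in the canonical response. Its levels were 47.6, 60.6, 36.5 and 28.7 CPM in control and 63.2, 63.6, 47.1 and 34.9 CPM in PUS10KO. The genotypes overlapped, while each PUS10KO library was above the control library of its number. The log2 fold change was 0.27 (SE 0.27, edgeR adjusted p = 0.582, or 0.0366 with the replicate block). The tested genes of chromosome 12 had a median log2 fold change of -0.60, and relative to that median Nfkbia stood at 0.87. The part of the chromosome-wide shift was not tested.

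Nfkbib (ENSMUSG00000030595.15, chromosome 7, 28758251 to 28767512, minus strand) encodes IkB beta, also a cytoplasmic inhibitor. It had 14.6, 14.5, 11.9 and 9.48 CPM in control and 24.5, 19.4, 14.1 and 13.5 CPM in PUS10KO, with PUS10KO 3 and 4 inside the control range. The log2 fold change was 0.50 (SE 0.23, edgeR adjusted p = 0.215, or 0.0131 with the replicate block). Its exons overlap those of Sirt2 (42 bases) and Ccer2 (314 bases) on the opposite strand. Sirt2 was at 36.0 ± 2.63 CPM in control and 34.8 ± 6.27 CPM in PUS10KO. The level of Ccer2, with the longer overlap, is not given here. The part of antisense reads in the Nfkbib counts was not tested.

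Nfkbiz (ENSMUSG00000035356.17, chromosome 16, 55811375 to 55838899, minus strand) encodes IkB zeta, an atypical nuclear member that acts as a cofactor at some NF-kB target genes. It had 19.5, 26.5, 23.0 and 22.2 CPM in control and 15.0, 20.9, 18.3 and 13.1 CPM in PUS10KO. Only PUS10KO 2 overlapped the control range, and its own numbered control was the highest of the 8 libraries. The log2 fold change was -0.44 (SE 0.18, edgeR adjusted p = 0.156, or 0.0136 with the replicate block). The median of chromosome 16 was -0.19, and relative to it Nfkbiz stood at -0.25.

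Within the IkB pool Nfkbia held the largest share in every library, 60.3% to 72.3% in control and 54.3% to 65.7% in PUS10KO. The mean share of Nfkbie was 4.02% ± 1.96 in control and 14.3% ± 5.76 in PUS10KO, and that of Nfkbiz 14.1% ± 3.17 and 7.80% ± 1.33 (SD, n = 4). Both shares were free of overlap between genotypes (exact permutation p = 0.0286 each, the smallest possible, adjusted p = 0.0571). They too come from the same counts and were added after values had been seen. Nfkbia (exact p = 0.286) and Nfkbib (exact p = 0.514) overlapped in share. Per length Nfkbie was the scarcest of the 10 members in control, at 1.5 ± 0.40 CPM per kb. In PUS10KO it was at 7.15 ± 1.47 CPM per kb, above Nfkbiz (4.09 ± 0.84) in every library and overlapping Nfkbib (8.67 ± 2.49).

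The ubiquitin-editing inhibitor went the other way from Nfkbie. Tnfaip3 (ENSMUSG00000019850.11, chromosome 10, 19000910 to 19015657, minus strand) encodes A20, which removes signalling ubiquitin chains upstream of the IKK complex. It had 30.03, 25.7, 18.0 and 13.1 CPM in control and 9.92, 10.3, 9.58 and 12.0 CPM in PUS10KO. The control libraries were spread widely and the PUS10KO libraries closely, and control 4 was only just above PUS10KO 4. Tnfaip3 fell from 21.7 ± 7.58 to 10.4 ± 1.06 CPM, a log2 fold change of -1.06 (SE 0.25, edgeR adjusted p = 0.0254). The call was lost without control 1, control 2, PUS10KO 1, PUS10KO 2 or PUS10KO 3 (adjusted p 0.0514 to 0.0746). It held without control 3, control 4 or PUS10KO 4, and the log2 fold change ran from -1.22 to -0.85 over the 8 fits. The log2 difference was -1.59, -1.31, -0.91 and -0.13 in libraries numbered 1, 2, 3 and 4, so number 4 contributed little. The median of chromosome 10 was -0.25, and relative to it Tnfaip3 stood at -0.81.

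Ikbkb (ENSMUSG00000031537.15, chromosome 8, 22659212 to 22706589, minus strand) encodes IKK beta, the kinase that marks IkB in the canonical route. It had 46.3, 46.5, 47.6 and 40.5 CPM in control and 50.8, 52.0, 50.1 and 50 CPM in PUS10KO. All PUS10KO libraries were above all control libraries, yet by little. The log2 fold change was 0.17 (SE 0.10, edgeR adjusted p = 0.349, or 0.135 with the replicate block). Its PUS10KO values varied least of all members, with a coefficient of variation of 1.79%. The members with the widest spread in control were Tnfaip3 (34.9%) and Nfkbia (32.1%).

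**Figure D3:**
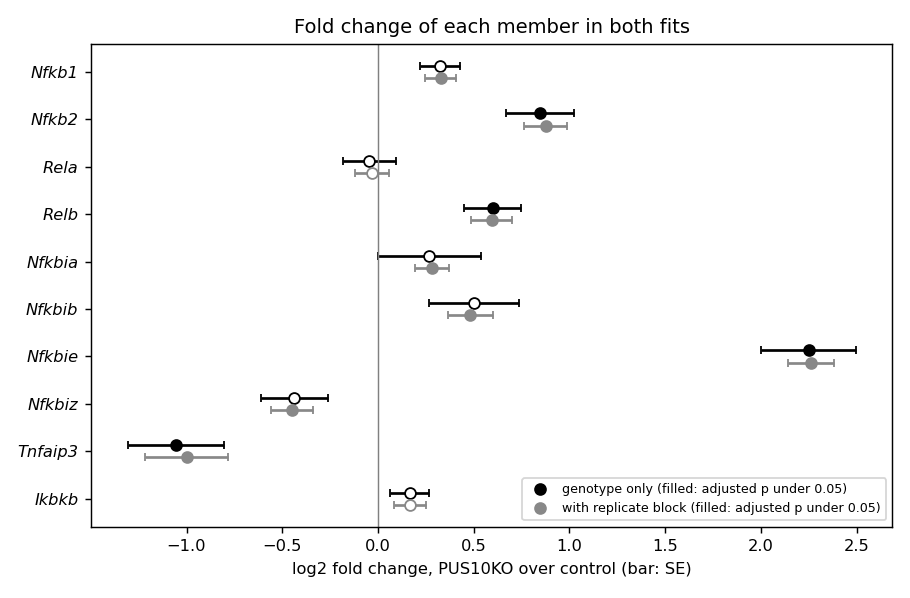
Log2 fold change of each member, PUS10KO over control, with its SE, from the fit on genotype alone (black) and with the replicate block (grey). Filled points have an adjusted p under 0.05. Fold changes were alike in both fits, while the errors were smaller with the block for all 10 members, so that 8 members passed with it and 4 without.

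Between libraries of the same number 7 members were higher in PUS10KO in all 4 comparisons and 2, Nfkbiz and Tnfaip3, were lower in all 4. Among all genes tested 28.4% were higher and 26.9% lower in all 4. Rela was the member with mixed signs, from -0.20 in number 1 to 0.16 in number 4.

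**Figure D4:**
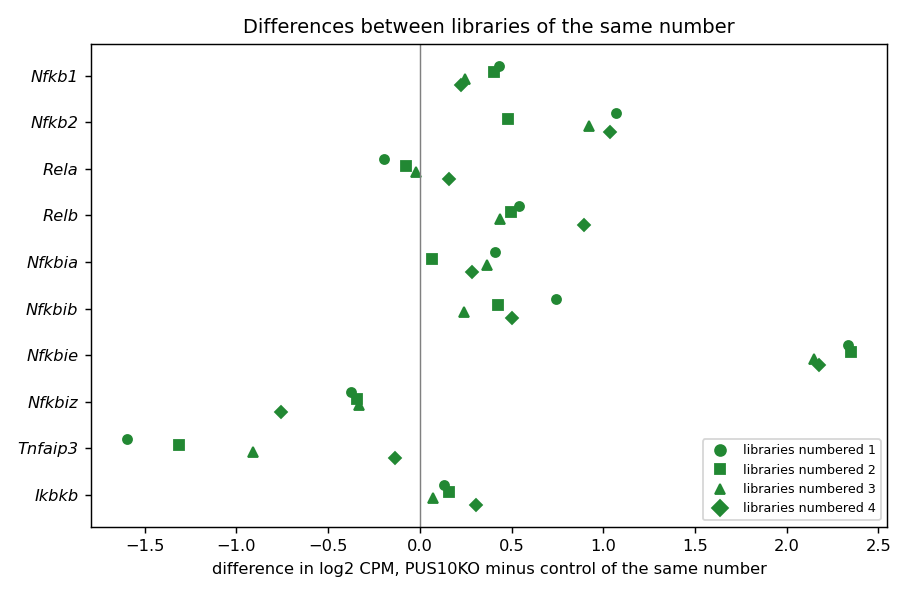
Difference in log2 CPM between the PUS10KO and the control library of the same number, for each member. Nfkbie lay between 2.15 and 2.35 in all 4 numbers, while Tnfaip3 spread from -1.59 to -0.13.

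The genes whose profile over the 8 libraries was most like that of a member were found by the root mean square difference of gene-centred log2 CPM. For Nfkb2 they were Piga (0.114) and Rbpj (0.119), for Relb Ptbp2 (0.114) and Alkbh4 (0.119). For Nfkbie they were Zfp286 (0.123) and Slc38a4 (0.197), and for Tnfaip3 Lpp (0.133) and Dbndd2 (0.161). The centred profiles of the members themselves had root mean squares of 0.489, 0.339, 1.17 and 0.598 in the same order. Lpp shared with Tnfaip3 the wide spread among control libraries, at 793, 537, 379 and 314 CPM in control and 212.5 to 257 CPM in PUS10KO.

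The rest of the pathway was read from lists by role. None of 6 tested genes in the list of other REL, IkB and IKK genes passed edgeR's test, where 5.9% of all genes rose and 7.11% fell. An unadjusted p under 0.05 was found for 1 of them. DESeq2 called 1 (19.9% of all genes) and limma voom 0 (12.7% of all genes). With the replicate block 2 rose (19.1% of all genes). The list's median was a log2 fold change of 0.22. The 2 most abundant, the IKK scaffold gene Ikbkg and the IKK alpha gene Chuk, had log2 fold changes of 0.29 and 0.15 (edgeR adjusted p = 0.251 and 0.825).

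Of 30 adaptors and kinases that lead to IKK 2 rose, 1 fell and 27 did not pass (median log2 fold change 0.07). The shares of 6.67% higher and 3.33% lower stand beside 5.9% and 7.11% of all genes tested. With the block 6 rose and 3 fell, where 19.1% and 19.9% of all genes did. Traf1, an adaptor of TNF receptors, had 17 counts over the control libraries and 287 over the PUS10KO libraries, or 0.23 ± 0.25 and 3.26 ± 0.89 CPM (edgeR adjusted p = 0.00396). It passed the filter on low counts only through PUS10KO. Card10, a scaffold of the CARD-BCL10-MALT1 complex, rose from 1.49 ± 0.51 to 5.66 ± 2.10 CPM (edgeR adjusted p = 0.00958). Tab2, which joins the TAK1 kinase to ubiquitin chains, fell from 79.5 ± 9.22 to 46.0 ± 2.77 CPM, a log2 fold change of -0.79 (edgeR adjusted p = 0.0031). Tab2 lies on chromosome 10, as Tnfaip3 does.

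Of 17 negative regulators 1 rose, 1 fell and 15 did not pass (median log2 fold change 0.19). The share of 5.88% each way was near the 5.9% higher and 7.11% lower of all genes tested. With the block 5 rose and 4 fell, where 19.1% and 19.9% of all genes did. Tnip1, a ubiquitin-binding partner of A20, had 16.4, 19.2, 23.2 and 18.4 CPM in control and 28.7, 40.5, 43.9 and 44.3 CPM in PUS10KO. All PUS10KO libraries were above all control libraries. Tnip1 thus rose where Tnfaip3 fell, with a log2 fold change of 1.03 (SE 0.18, edgeR adjusted p = 0.00551). Nlrx1, a mitochondrial NOD-like protein, fell from 3.73 ± 0.70 to 0.058 ± 0.019 CPM, with 296 counts over the control libraries and 5 over the PUS10KO libraries (edgeR adjusted p = 3.93e-05). Nlrx1 passed the filter on low counts only through control.

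Among the receptors 3 of 16 rose, 13 did not pass and none fell (median log2 fold change 0.19). With the block 5 rose and 1 fell. Among all genes tested, the measure for receptors and ligands alike, 5.9% rose and 7.11% fell, or 19.1% and 19.9% with the block. Eda2r, a TNF receptor family member for ectodysplasin, rose from 40.9 ± 6.37 to 95.4 ± 17.1 CPM (edgeR adjusted p = 0.00226). The interleukin 33 receptor gene Il1rl1 rose by a log2 fold change of 2.19 (edgeR adjusted p = 0.00345). Il1r1, the receptor of interleukin 1, rose from 20.2 ± 7.11 to 37.4 ± 3.35 CPM (edgeR adjusted p = 0.0435). With 1 library left out this call was kept only when it was control 1 or control 4, and was lost in the other 6 fits (adjusted p up to 0.104). Only 4 of 14 listed ligands were tested, 1 of which rose, and 2 with the block. It was Eda, the ectodysplasin gene, which rose from 2.42 ± 0.50 to 6.18 ± 0.73 CPM (edgeR adjusted p = 0.00476). Ligand and receptor of the ectodysplasin family thus both rose, though which splice form of Eda was present was not analysed here, and EDA2R binds only some forms. Both genes lie on the X chromosome, whose tested genes had a median log2 fold change of 0.20. The part of sex-chromosome content in their rise was not tested.

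Of 35 listed target genes of NF-kB 28 were tested. Of these 8 rose, 20 did not pass and none fell (median log2 fold change 0.41), where 5.9% of all genes tested rose and 7.11% fell. With the block 15 rose and 4 fell, where 19.1% and 19.9% of all genes did. The 4 with the lowest p were the adhesion molecule gene Icam1, the chemokine genes Cxcl10 and Cxcl1 and the gelatinase gene Mmp9. Icam1 had 0.19, 0.22, 0.31 and 0.81 CPM in control and 25.9, 35.3, 52.0 and 61.4 CPM in PUS10KO. As with Nfkbie, the library numbered 4 was the highest of each genotype and the library numbered 1 the lowest. Cxcl10 had 14 counts over the control libraries and 630 over the PUS10KO libraries, and Mmp9 had 4 and 298 (edgeR adjusted p = 0.000413 and 0.0012). Cxcl1 had a log2 fold change of 2.64 (edgeR adjusted p = 0.00205). Mmp3, another of the 8 that rose, had 2, 1, 0 and 0 counts in control and 26, 23, 15 and 23 in PUS10KO. Icam1, Cxcl10, Mmp9 and Mmp3 were so low in control that they passed the filter on low counts only through PUS10KO. Such genes could be tested only where they were high in PUS10KO. The increases of several of these targets were also known from these data before the list was used, so the list is no independent evidence of a direction.

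**Figure D5:**
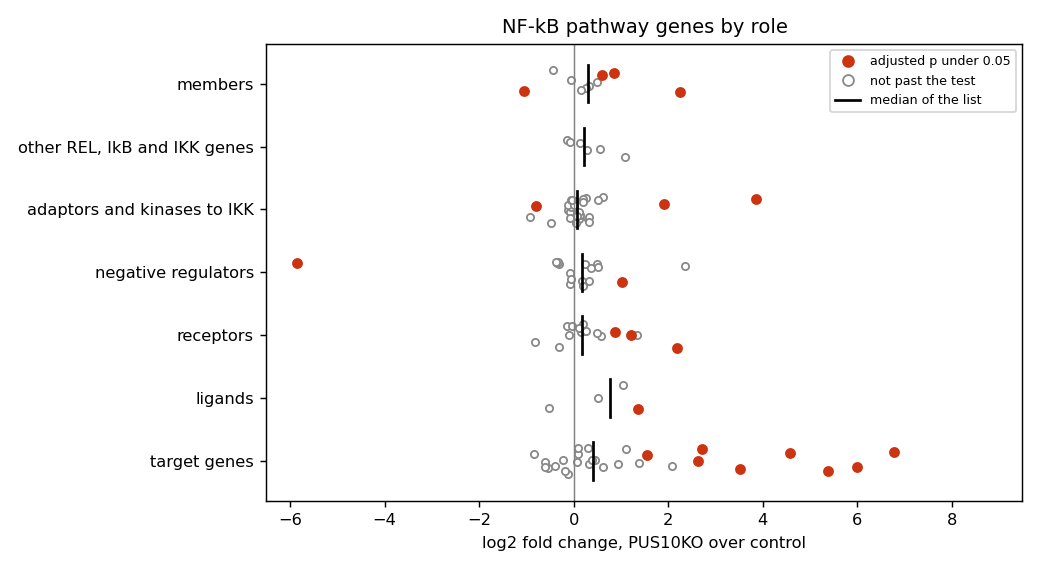
Log2 fold change, PUS10KO over control, of each tested gene by role in the pathway. Red points have an adjusted p under 0.05 and bars are list medians. The target genes hold 8 red points, all higher in PUS10KO, while 27 of 30 adaptors and kinases did not pass. Of these 8, Icam1, Cxcl10, Mmp9 and Mmp3 passed the filter on low counts only through PUS10KO. Over all genes tested 5.9% rose and 7.11% fell.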

How the data were processed

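RNA sequencing of 8 libraries (4 control, 4 PUS10KO, grouped by title) was analysed from the gene counts that the authors deposited, whole numbers that are not normalized. Per the labels' protocols, libraries were made from total RNA with a stranded kit and read from both ends. Per the submitters' processing notes the build was mm10 and the tools included DESeq2 and STAR 2.7.8a. The sources used here do not give how reads were counted (tool, strand setting, annotation) or how genes were filtered. A further table of normalized values was not used, since no source states its scale. The sources do not say that libraries came from separate cultures or animals; all pairs of libraries within a genotype differed by more than sampling noise (chi-square per degree of freedom at least 18.2).

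The counts were tested with edgeR 4.0.16 in R 4.3.3 (filterByExpr, TMM, robust quasi-likelihood test, genotype as the only term, Benjamini-Hochberg adjustment over 11909 genes, threshold 0.05). The SE is the log2 fold change divided by the square root of F. Alternatives were a replicate block, RLE scaling, no filter, DESeq2 1.42.0, limma 3.58.1 (voom) and leaving out each library. The test was tested on simulated data. Same-numbered libraries deviated together from their genotype means, with r of 0.672, 0.708, 0.621 and 0.678 over genes (not independent replicates). The numbers were taken as pairs only in the replicate block and in the comparisons by number. The main test, the fits without 1 library and the permutation of shares did not use the number. Against control libraries of different numbers r reached 0.299, 0.043, 0.573 and 0.494, so numbers 3 and 4 were less distinct. This pairing comes from the counts, not from the labels. GENCODE M21 (GRCm38, which is mm10) gave gene positions and transcript lengths, matched for all but 13 of 12211 rows. The shares within the subunits and within the IkB genes were added after values had been seen. Members and lists were chosen with earlier results of these data known. Named were all members, up to 4 called genes of each list by lowest p (2 by level where none was called), the 2 profiles most like each called member, and Pus10. Psd, Sirt2, Ccer2, Eif2s3y, Thy1, Pdgfra, S100a4, Lum, Col3a1, Mmp3, Cd14, Lyz2, Cd68, Csf1r and AC114539.1 were named besides, after their values were seen.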

Additional observations from a re-analysis of the deposited data

Results flagged for a closer look

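Nfkb2 in control 2, at 85.7 CPM, lay far from the other control libraries (51.1 to 56.4 CPM) by Dixon's test at the 95% level. It was the only one of 20 groups of 4 values (10 members in each genotype) to do so, and chance gives about 1 in 20. Without this library the log2 fold change of Nfkb2 was 1.05, against 0.85 with all 8.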

How the results depend on the processing

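The calls of Nfkb2, Relb, Nfkbie and Tnfaip3 held with the replicate block, RLE scaling, no filter, DESeq2 and limma voom. With the block 2273 genes of the whole table rose and 2368 fell, and DESeq2 called 1146 and 1287, against 703 and 847. The block called 6 members higher and 2 lower. It called 2 of the other REL, IkB and IKK genes higher, 6 adaptors higher and 3 lower, and 5 negative regulators higher and 4 lower. It also called 5 receptors higher and 1 lower, 2 ligands higher, and 15 target genes higher and 4 lower. DESeq2 called 1 of the other REL, IkB and IKK genes higher, 2 adaptors lower and 2 negative regulators higher. Leaving out 1 library gave 520 to 728 genes lower (520 without PUS10KO 3 and 560 without PUS10KO 2), 0 to 1 members lower, 0 to 1 of the other REL, IkB and IKK genes higher (1 without PUS10KO 1), 1 to 2 adaptors lower (2 without control 4) and 1 to 3 negative regulators higher (3 without control 1). The cause of these moves was not tested. Subtracting the median of the chromosome gave log2 fold changes of 0.45 for Relb (0.60 without it), 0.87 for Nfkbia (0.27), -0.25 for Nfkbiz (-0.44) and 0.07 for Rela (-0.04), the only member whose sign changed. With union exon length the difference in share, PUS10KO minus control, was 10.7 percentage points for Nfkb2 and -10.1 for Rela, against 9.13 and -6.94. Of the named genes, counts limit the precision most for Traf1, Nlrx1, Icam1, Cxcl10, Mmp9 and Mmp3, which were near 0 in 1 genotype. Icam1 had 31 counts over the control libraries. Among the members counts were lowest for Nfkbie.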
